A study of Mus musculus with 2 samples.

Results

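The Mir17-92 and Mir106b-25 polycistrons are 2 clusters of microRNA (miRNA) precursors, each held within a single host gene. Their 9 genes were found by matching the Ensembl identifiers of the count tables, version dropped, to GENCODE mouse symbols, and all 9 were among the 1973 genes of the tables. The Mir17-92 cluster holds Mir17, Mir18, Mir19a, Mir20a, Mir19b-1 and Mir92-1, and the Mir106b-25 cluster holds Mir106b, Mir93 and Mir25. They were measured by miRNA sequencing of neural tube, the embryonic tissue that forms the central nervous system, from healthy mouse embryos of strain B6NCrl at 15.5 days, males and females pooled. The samples form 1 group of 2 libraries labelled as biological replicates, 1 from 78 pooled embryos (called pool 1) and 1 from 62 pooled embryos (called pool 2). With a single untreated group, the data give the level of each miRNA gene and the spread between the pools, and no comparison between conditions.

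miRNAs are cut from hairpin precursors as short RNAs that guide Argonaute proteins to messenger RNAs, which they repress. Pairing rests mainly on the seed, bases 2 to 8 of the mature strand, so that miRNAs with the same seed share most of their targets. The Mir17-92 cluster is known to promote proliferation and survival, it is switched on by Myc and E2F factors, and in the mouse embryo its loss impairs the heart, the lung, B cells and spinal motor neurons. The Mir106b-25 cluster lies in Mcm7, which encodes a subunit of the DNA replication helicase, and in mice it has been linked to the growth of neural progenitors.

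Depth was 4228685 sense-strand miRNA gene counts in pool 1 and 6039889 in pool 2. Levels are given in CPM, a gene's sense counts per 1000000 of that sum, and a gene at 0 counts could still lie as high as 0.709 CPM in pool 1 or 0.497 CPM in pool 2, the equivalent of 3 counts. Intervals and limits cover counting error only. At least 10 counts in each pool, taken as detection, were found for 363 genes, all 9 cluster genes among them, and the median level of detected genes was 136 CPM. Of the neural marker list (Mir9, Mir92b, Mir124a, Mir128, Mir137, Mir138, Mir219a and Mir338 genes) 10 of 14 analysed genes were detected, and 0 were without a count in both pools. Those below detection were Mir9-2, Mir124a-1, Mir124a-2 and Mir124a-3, and Mir9-1 was not analysed here. Mir9 and Mir124a have several genes each, and reads that aligned to several places were counted in no gene. Low counts of these genes therefore do not show that their mature miRNAs were scarce. How far such reads lowered them was not tested. A gene's counts merge the reads of both arms of its hairpin. In a dissected tissue, fewer cells of a type and less RNA per cell cannot be told apart.

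The guide arms, the strands generally loaded into Argonaute, fall into 4 seed families. They are shown because the levels below are compared by seed, from RefSeq on build GRCm38.p6, 5′ to 3′, with the seed in capitals. The 4 genes of the Mir17 seed, which is known to repress the cell cycle inhibitor Cdkn1a, come from both clusters.
miR-17-5p of Mir17: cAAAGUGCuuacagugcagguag
miR-20a-5p of Mir20a: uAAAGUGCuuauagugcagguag
miR-106b-5p of Mir106b: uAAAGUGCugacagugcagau
miR-93-5p of Mir93: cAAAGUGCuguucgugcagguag

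The Mir18 seed is present in Mir17-92 and not in Mir106b-25.
miR-18a-5p of Mir18: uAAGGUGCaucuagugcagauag
The Mir19 seed is likewise found in Mir17-92 alone of these clusters.
miR-19a-3p of Mir19a: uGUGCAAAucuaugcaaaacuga
miR-19b-3p of Mir19b-1: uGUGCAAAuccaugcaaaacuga
The Mir92 seed, known to repress the pro-apoptotic gene Bcl2l11, is carried by the last precursor of each cluster.
miR-92a-3p of Mir92-1: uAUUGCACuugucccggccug
miR-25-3p of Mir25: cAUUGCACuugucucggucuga

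Written as first base, position from 1 at the 5′ end, and second base, miR-17-5p and miR-18a-5p differ within the seed by A4G alone, and by 6 substitutions over the whole arm. miR-17-5p and miR-20a-5p differ by C1U and C12U, both outside the seed. The 2 Mir19 arms differ by U11C alone. miR-92a-3p and miR-25-3p differ by U1C, C14U and C18U over their 21 shared positions. The 9 guide arms are 21 to 23 bases long, so levels were compared per gene and not divided by length.

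The guide arm occurs in a single annotated precursor for 7 of the 9 genes. The exceptions are Mir19b-1 and Mir92-1, whose arms are also carried, base for base, by Mir19b-2 and Mir92-2 of the X-linked cluster Mir106a to Mir363. Their hairpins are shown to make this visible, with the shared mature arm in capitals.
Mir19b-1 (chr14:115044305-115044391, plus strand): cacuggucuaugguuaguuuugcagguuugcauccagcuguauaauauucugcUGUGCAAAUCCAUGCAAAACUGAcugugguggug
Mir19b-2 (chrX:52741983-52742066, minus strand): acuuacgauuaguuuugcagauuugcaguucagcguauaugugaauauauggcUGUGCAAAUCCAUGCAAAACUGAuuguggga
Mir92-1 (chr14:115044427-115044506, plus strand): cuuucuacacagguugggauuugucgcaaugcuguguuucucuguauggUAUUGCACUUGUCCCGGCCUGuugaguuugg
Mir92-2 (chrX:52741838-52741928, minus strand): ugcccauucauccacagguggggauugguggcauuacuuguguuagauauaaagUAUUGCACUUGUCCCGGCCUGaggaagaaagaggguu

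The run shared around the arm is 25 bases in the Mir19b pair and 22 bases in the Mir92 pair. The copies differ at the first base after the arm, C in Mir19b-1 and U in Mir19b-2, and U in Mir92-1 and A in Mir92-2. Reads that aligned to several places made up 29.4% of pool 1 and 29.7% of pool 2 and were counted in no gene. The levels of Mir19b-1 and Mir92-1, and of the sums that hold them, may therefore be too low, by an amount these counts do not give.

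On mm10, the 6 precursors of Mir17-92 lie on the plus strand of chromosome 14 within 836 bases, from 115043671 to 115044506, in an exon of the single annotated transcript of the non-coding host gene Mir17hg. The 3 precursors of Mir106b-25 lie on the minus strand of chromosome 5 within 498 bases, from 138165321 to 138165818. There Mir106b (138165737 to 138165818), Mir93 (138165523 to 138165610) and Mir25 (138165321 to 138165404) each lie in an intron of 2 annotated Mcm7 transcripts, and Mir93 and Mir25 also overlap an exon of 1 other transcript. Within each host gene, the levels of the miRNA genes differed widely.

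Mir17 was the most abundant of the 9 genes. It had 10244 CPM in pool 1 and 8262 CPM in pool 2 (mean 9253 ± 1401, SD, n = 2), and ranked 17 of all miRNA genes in both. Mir20a, which shares its seed and its transcript, had 3524 CPM in pool 1 and 2548 CPM in pool 2 (3036 ± 690). Mir17 thus exceeded Mir20a 2.91-fold in pool 1 (95% exact counting interval 2.85 to 2.96) and 3.24-fold in pool 2 (3.18 to 3.30). Both libraries placed Mir17 above Mir20a, and the libraries' levels of the pair did not overlap.

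The Mir17-seed genes of the Mcm7 intron stood between them. Mir93 had 4727 CPM in pool 1 and 4080 CPM in pool 2 (4404 ± 457). Mir106b had 3811 CPM in pool 1 and 3035 CPM in pool 2 (3423 ± 549). Mir93 was above Mir106b in each pool, 1.24-fold in pool 1 (1.21 to 1.27) and 1.34-fold in pool 2 (1.32 to 1.37), a small difference whose size changed between the pools beyond counting error.

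Mir18, the only gene of its seed in these clusters, had 2341 CPM in pool 1 and 1922 CPM in pool 2 (2131 ± 296). The ratio of Mir17 to Mir18 was 4.38 in pool 1 (4.28 to 4.47) and 4.30 in pool 2 (4.21 to 4.39). The counting intervals of this ratio overlapped between the libraries, whereas those of Mir17 to Mir20a did not.

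The Mir19 genes had the lowest counts. Mir19a had 109 counts in pool 1 and 147 in pool 2, which is 25.8 CPM in pool 1 and 24.3 CPM in pool 2 (25.1 ± 1.02). Mir17, on the same transcript, exceeded it 397-fold in pool 1 (329 to 484) and 339-fold in pool 2 (289 to 402). Mir19b-1 had 27 counts in pool 1 and 26 in pool 2, or 6.38 CPM in pool 1 and 4.30 CPM in pool 2 (5.34 ± 1.47). Both lay below the median of detected genes, and the other 7 lay above it. The arm of Mir19b-1 has an identical copy, and the arm of Mir19a has none. The closest other precursor to the Mir19a arm is Mir19b-1, at 1 mismatch. For the Mir17 arm it is Mir106a, also at 1 mismatch (U10A). How the aligner treated such near matches is not given in the sources used here, and the part of alignment or of library preparation in the low Mir19 counts was not tested.

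The Mir92-seed gene of each cluster lay below the Mir17-seed and Mir18-seed genes and above the median of detected genes. Mir92-1 had 869 CPM in pool 1 and 490 CPM in pool 2 (679 ± 268), the widest spread of the 9 relative to the mean. Mir25 had 199 CPM in pool 1 and 197 CPM in pool 2 (198 ± 1.88), and was nearly equal in the pools. Mir92-1 exceeded Mir25 4.36-fold in pool 1 (4.04 to 4.70) and 2.49-fold in pool 2 (2.33 to 2.66). This ratio of assigned counts differed between the pools beyond counting error. Reads of the miR-92a arm that aligned to both Mir92-1 and Mir92-2 are missing from it, and the counting intervals do not cover that loss. In the Mir17 seed the sum of Mir17 and Mir20a exceeded that of Mir106b and Mir93 1.61-fold in pool 1 and 1.52-fold in pool 2, with counting intervals that did not overlap. The guide arm of Mir25 occurs in no other annotated precursor, and Mir93 of the same host gene exceeded it 23.7-fold in pool 1 (22.1 to 25.4) and 20.7-fold in pool 2 (19.6 to 22.0).

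From highest to lowest, the order was Mir17, Mir93, Mir106b, Mir20a, Mir18, Mir92-1, Mir25, Mir19a and Mir19b-1 in each pool. The places of Mir92-1 and Mir19b-1 in that order rest on counts that may be too low, since their arms have identical copies. Of the 8 neighbouring pairs in that order, 1 overlapped in its range over the libraries, Mir106b and Mir20a. The order did not follow position along the transcript. In Mir17-92 the first precursor was the highest, but the Mir19a precursor, 329 bases downstream of the start of Mir17, was far lower than that of Mir20a at 486 bases. Across the 9 genes, the Spearman correlation of mean level with the GC content of the guide arm was 0.377, a description over genes that share transcripts and libraries. No antisense read was counted at any of the 9 genes in either pool.

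**Figure D1:**
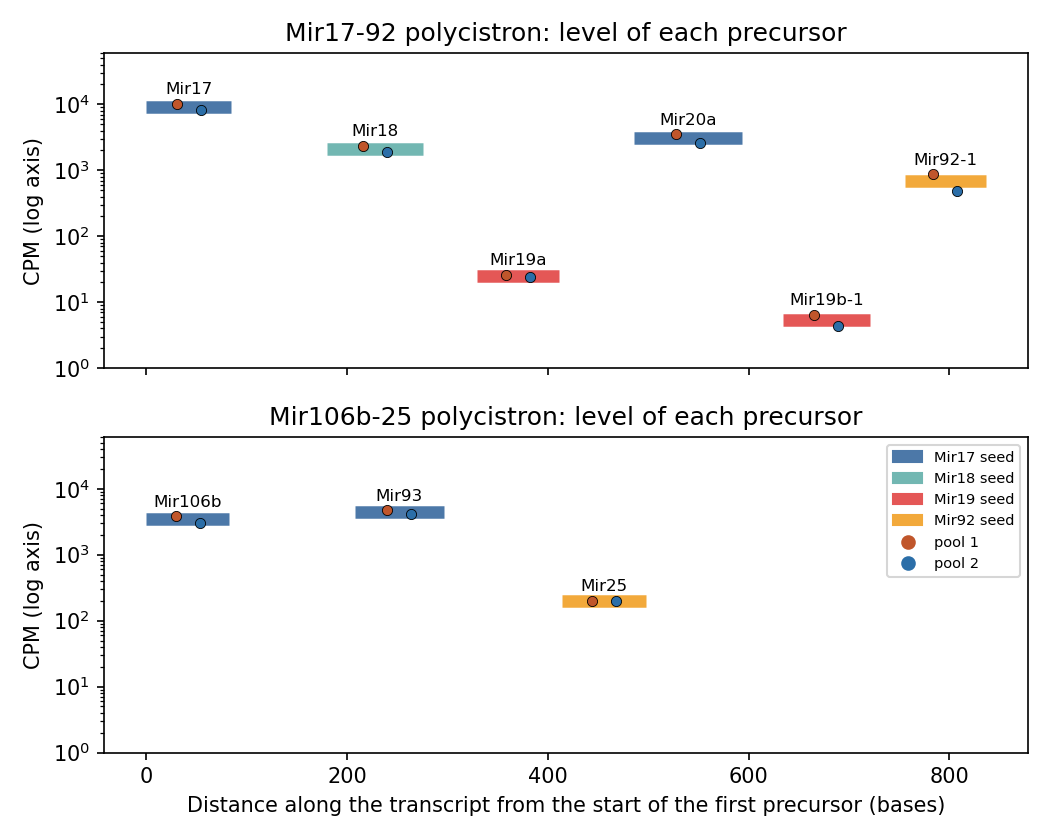
Levels (CPM, log axis) of the precursors of Mir17-92 (top) and Mir106b-25 (bottom) against distance along the transcript from the start of the first precursor, in bases. Each coloured line spans a precursor at the mean of both pools, coloured by seed family, and dots give pool 1 (left) and pool 2 (right). Mir17, at 9253 CPM, and Mir19b-1, at 5.34 CPM, mark the extremes. The levels of Mir19b-1 and Mir92-1 leave out reads that aligned to several places.

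As sums, the 9 genes held 2.57% of all miRNA gene counts in pool 1 (95% Wilson interval 2.56 to 2.59) and 2.06% in pool 2 (2.04 to 2.07). Mir17-92 held 1.70% in pool 1 and 1.33% in pool 2 (1.51% ± 0.266, SD, n = 2), and Mir106b-25 held 0.874% in pool 1 and 0.731% in pool 2 (0.802% ± 0.101). Counts of Mir17-92 exceeded those of Mir106b-25 by 1.95-fold in pool 1 (1.92 to 1.97) and 1.81-fold in pool 2 (1.79 to 1.83). The excess was present in both pools, while its size differed between them by more than counting error.

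Within Mir17-92, Mir17 supplied 60.2% of the counts in pool 1 (59.9 to 60.6) and 62.4% in pool 2 (62.0 to 62.7). Mir20a supplied 20.7% in pool 1 and 19.2% in pool 2, and Mir18 supplied 13.8% in pool 1 and 14.5% in pool 2. Mir92-1 supplied 5.11% in pool 1 (4.95 to 5.27) and 3.69% in pool 2 (3.57 to 3.83). Shares within a cluster need no scaling between libraries, so these shifts do not depend on library size. Within Mir106b-25, Mir93 supplied 54.1% in pool 1 and 55.8% in pool 2, Mir106b 43.6% in pool 1 and 41.5% in pool 2, and Mir25 2.28% in pool 1 and 2.69% in pool 2.

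Compared by seed, the clusters contributed unequally. Counts are of whole genes with both arms merged, so the share of reads that carry a seed was not measured. All annotated genes with the Mir17 seed reached 22938 CPM in pool 1 and 18171 CPM in pool 2. Mir17 and Mir20a supplied 60.0% of these counts in pool 1 and 59.5% in pool 2, and Mir106b and Mir93 supplied 37.2% in pool 1 and 39.2% in pool 2. The X-linked Mir106a and Mir20b supplied 2.75% in pool 1 and 1.35% in pool 2. Mir6383, which carries the same seed, had 0 counts in both pools. Nearly the whole of this family's counts thus came from the 2 clusters.

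The Mir18 family came from a single gene, with Mir18 at 98.5% in pool 1 and 98.7% in pool 2 and its X-linked paralog Mir18b making up the rest. The Mir19 family held 147 counts in pool 1 and 184 in pool 2. Mir19a supplied 74.1% of them in pool 1 (66.5 to 80.5) and 79.9% in pool 2 (73.5 to 85.0), with intervals that overlap. Reads of the miR-19b arm that aligned to both copies are missing from these shares.

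The Mir92 family was the exception, because most of its counts assigned to single genes came from outside the clusters. Mir92b, a gene of chromosome 3 known from neural progenitors, is shown with Mir363 of the X-linked cluster for its matching seed.
miR-92b-3p of Mir92b: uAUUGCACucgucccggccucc
miR-363-3p of Mir363: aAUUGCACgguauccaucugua
Mir92b had 1700 CPM in pool 1 and 1963 CPM in pool 2, and supplied 51.5% of the family in pool 1 (50.6 to 52.3) and 66.0% in pool 2 (65.3 to 66.7). Mir92-1 supplied 26.3% in pool 1 and 16.5% in pool 2, Mir25 6.04% in pool 1 and 6.62% in pool 2, and Mir363 10.3% in pool 1 and 7.23% in pool 2. Mir92b exceeded Mir92-1 by 1.96-fold in pool 1 (1.88 to 2.04) and 4.01-fold in pool 2 (3.85 to 4.18). Since reads of the miR-92a arm alone fit both Mir92-1 and Mir92-2, the contribution of Mir92-1 may be understated. Whether most reads of this seed came from outside the clusters cannot be read from these counts. Mir32, with the same seed, had 107 CPM in pool 1 and 80.5 CPM in pool 2, and Mir367 had 0 counts in both.

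**Figure D2:**
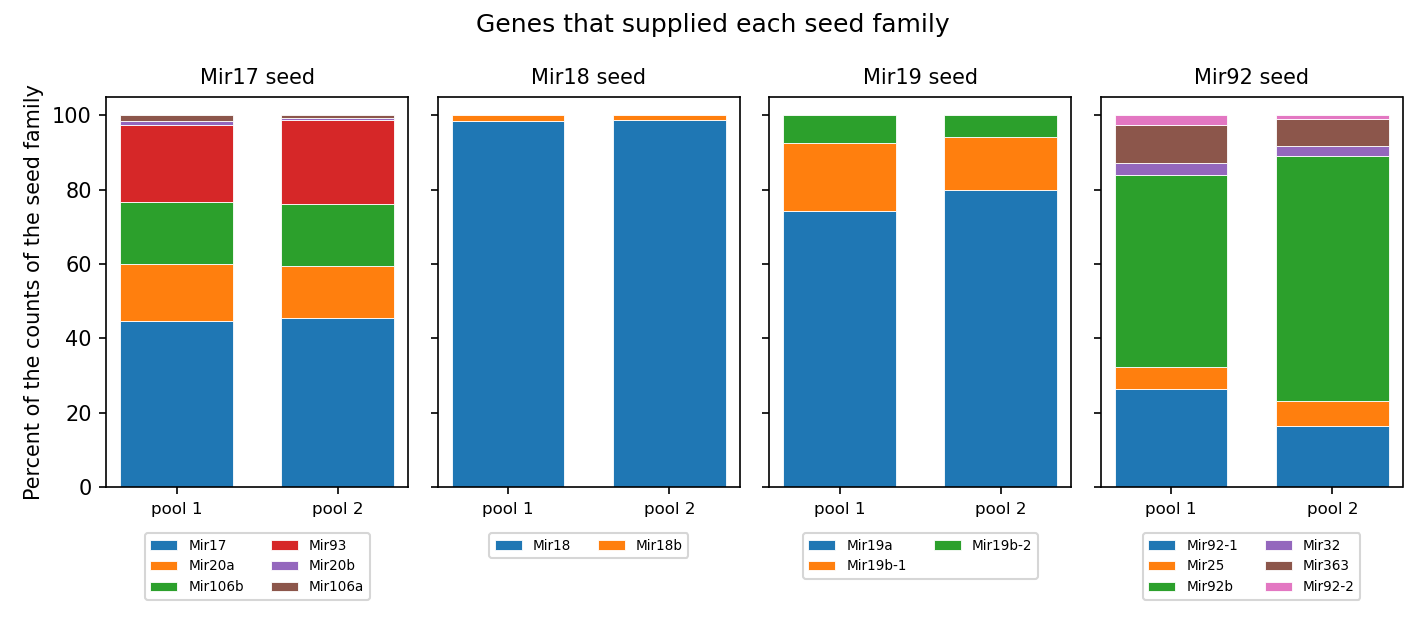
Percent of the counts of each seed family supplied by each gene, in pool 1 (left bar) and pool 2 (right bar) of each panel, with genes at 0 counts left out. The Mir17 and Mir18 families come almost wholly from Mir17-92 and Mir106b-25, while Mir92b supplies 51.5% of the Mir92 family in pool 1 and 66.0% in pool 2. Reads that aligned to several places are not included, and counts merge both arms of each hairpin.

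The X-linked Mir106a to Mir363 cluster is the paralog of Mir17-92. Its 6 genes together had 1098 CPM in pool 1 and 515 CPM in pool 2, so that Mir17-92 exceeded it 15.5-fold in pool 1 (15.0 to 16.0) and 25.7-fold in pool 2 (24.8 to 26.7). Paired by sequence, Mir17 exceeded Mir106a 27.9-fold in pool 1 and 53.3-fold in pool 2. Mir20a exceeded Mir20b 13.3-fold in pool 1 and 28.2-fold in pool 2, and Mir18 exceeded Mir18b 66.9-fold in pool 1 and 76.4-fold in pool 2. Mir92-1 exceeded Mir92-2 9.77-fold in pool 1 (8.78 to 10.9) and 17.5-fold in pool 2 (15.0 to 20.6). Mir19b-1 exceeded Mir19b-2 by less, 2.45-fold in pool 1 (1.18 to 5.48) and 2.36-fold in pool 2 (1.13 to 5.30), and Mir363 had 340 CPM in pool 1 and 215 CPM in pool 2. The gap was narrower in pool 1 beyond counting error for Mir106a, Mir20b and Mir92-2, while the intervals overlapped for Mir18b and Mir19b-2. Reads that aligned to both copies are missing from the ratios of Mir92-1 to Mir92-2 and of Mir19b-1 to Mir19b-2. The counting intervals do not cover that loss.

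All 9 genes had a higher CPM in pool 1 than in pool 2, by factors that differed between them, except that the small difference of Mir25 changed direction with TMM scaling. Ratios of pool 1 to pool 2, after TMM scaling, which aligns the libraries on the bulk of their genes, ran from 0.990 for Mir25 (exact counting interval 0.905 to 1.08) to 1.73 for Mir92-1 (1.65 to 1.82). Their median log2 ratio was 0.28, against -0.0036 over the 363 detected genes. The log2 ratio was above 0 for 88.9% of the 9 genes, beside 49.3% of the detected genes. Genes of the same cluster share a host gene, so they are not independent observations. Each ratio compares a single library with a single library and has no replicate check. The counting interval lay above 1 for 6 of the 9 genes, beside 27% of all detected genes, and below 1 for 0 of 9, beside 26.4%. Mir25, Mir19a and Mir19b-1 had intervals that included 1, and they had the fewest counts of the 9. Whether an interval excludes 1 depends on the counts as well as on the ratio. The detected genes were not matched to the 9 by count.

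At least 1.5-fold higher in pool 1 was 1 of the 9, Mir92-1, beside 11.8% of all detected genes, and 0 of 9 were at least 1.5-fold lower, beside 1.38%. A count of 1 in 9 is close to that background. The other genes with intervals above 1 were higher by factors from 1.13-fold for Mir93 (1.11 to 1.15) to 1.35-fold for Mir20a (1.32 to 1.38). Mir17, Mir18 and Mir106b lay close together, at 1.21-fold (1.20 to 1.23), 1.19-fold (1.16 to 1.22) and 1.23-fold (1.20 to 1.25). Among the X-linked paralogs, 4 of 6 were at least 1.5-fold higher in pool 1, the highest being Mir92-2 at 3.10-fold (2.58 to 3.74).

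Markers of other cell types were also higher in pool 1 as sums, though the counting intervals of the erythroid and liver ratios included 1. The epithelial list (Mir200 family genes, Mir141, Mir429, Mir203 and Mir205), detected in 7 of 7 genes, summed to 5458 CPM in pool 1 and 631 CPM in pool 2. The mesenchyme and smooth muscle list (Mir143, Mir145a, Mir145b, Mir199a-1, Mir199a-2, Mir199b, Mir214 and Mir140), detected in 6 of 8 genes with Mir145b at 0, summed to 22420 CPM in pool 1 and 7594 CPM in pool 2. Most of that difference came from Mir143, with 17950 CPM in pool 1 and 3951 CPM in pool 2, while Mir140 had 2985 CPM in pool 1 and 3025 CPM in pool 2. The leukocyte list (Mir223, Mir150 and Mir155, all detected, with Mir142 not analysed here) summed to 433 CPM in pool 1 and 237 CPM in pool 2, and the erythroid list (3 of 3) to 202 CPM in pool 1 and 183 CPM in pool 2. Antisense reads at Mir142b, named after its values were seen, came to 5684 in pool 1 and 975 in pool 2. These are raw reads not scaled to depth, which was lower in pool 1, and they are not in the leukocyte sum. The endothelial gene Mir126a had 22011 CPM in pool 1 and 19666 CPM in pool 2, and the liver gene Mir122 had 66.0 CPM in pool 1 and 56.3 CPM in pool 2. The neural list, which includes Mir92b, went the other way as a sum, with 14274 CPM in pool 1 and 15408 CPM in pool 2. The largest part of that difference came from Mir137, with 6615 CPM in pool 1 and 7220 CPM in pool 2. Among the detected genes of that list, Mir138-1, Mir138-2 and Mir338 were higher in pool 1. The part of the cell types of these lists in the higher levels of the cluster genes in pool 1 was not tested.

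**Figure D3:**
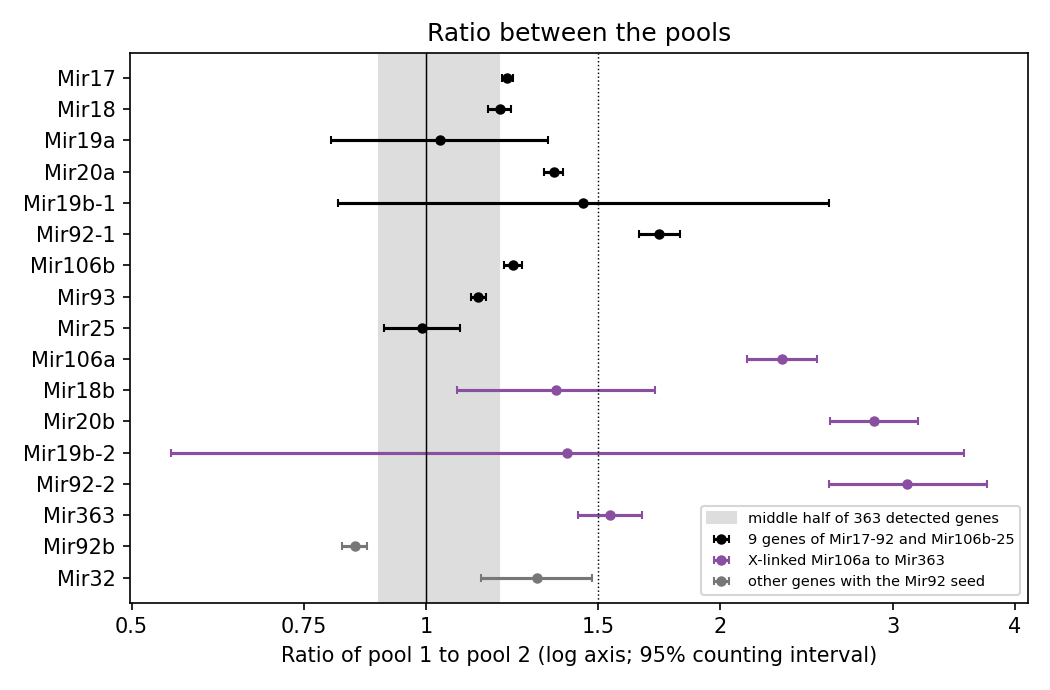
Ratio of pool 1 to pool 2 (log axis) with 95% exact counting intervals for the 9 genes, the 6 X-linked paralogs, and Mir92b and Mir32. The grey band spans the middle 50 percent of detected genes and the dotted line marks 1.5-fold. Mir92-1 is the 1 cluster gene beyond it with its whole interval, while Mir106a, Mir20b and Mir92-2 lie above 2-fold.

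By distance in log2(CPM + 1) over both pools, the genes outside the clusters with levels most like those of Mir17 were Mir23b (distance 0.169), Mir181c (0.269) and Mir127 (0.475). For Mir106b they were Mir652 (0.145), Mir151 (0.223) and Mir183 (0.224), and for Mir25 they were Mirlet7a-1 (0.00626), Mir665 (0.0348) and Mir700 (0.0532). With 2 libraries this likeness reflects mainly the level itself, as counted per gene from reads that aligned to a single place. For a miRNA with several genes, such as Mirlet7a-1 and Mirlet7a-2, the level of 1 gene is not that of the mature miRNA.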

How the data were processed

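miRNA sequencing reads of 2 neural tube libraries (pool 1 and pool 2) were used as raw read counts per annotated miRNA gene, deposited by the authors as 1 table per library. Per the deposited README texts, the tables are gene quantifications on mm10 with annotation release M4. For the aligner and counter, names and versions were not given in the sources used here. Entries that name no gene (45.7% of the reads of pool 1, 47.7% of pool 2) were left out of library sizes. The column with the larger strand total was used as sense. Names and positions came from GENCODE M21 (GRCm38), which matched 1894 of 1973 identifiers, and sequences from RefSeq GRCm38.p6.

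CPM used the sense sum. Ratios of pool 1 to pool 2 used TMM effective sizes (edgeR 4.0.16) over genes with at least 10 counts in each pool, with exact (Clopper-Pearson) 95% intervals. Shares carry Wilson intervals. Alternatives were size factors of DESeq2 1.42.0, unscaled library sizes, a minimum of 100 counts or none, unstranded counts, and leaving out copied genes or a library. The ratio calculation was tested on simulated data that held counting error alone, with no further spread between pools. Its 95% intervals covered the true ratio for 92.0% to 97.0% of genes, depending on the simulated fold. A true 1.5-fold difference was past the 1.5-fold threshold in 46.3% of genes, and a true 2-fold difference in 97.0%. No p-value was computed, since no groups exist to compare. Named genes were all 9 cluster genes, their X-linked paralogs, all other genes sharing a seed, and the 3 nearest in level to Mir17, Mir106b and Mir25. Members and lists were chosen with earlier results of these data known. Python 3.11.15, pandas 2.3.3, numpy 2.4.6, scipy 1.17.1, matplotlib 3.10.9 and R 4.3.3 were used.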

Additional observations from a re-analysis of the deposited data

How the results depend on the processing

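Leaving out genes with an identical copy took the share of the Mir19-seed cluster genes to 0.00251% in place of 0.00304%, and that of the Mir92-seed genes to 0.0198% in place of 0.0877%, since fewer genes were summed. The log2 ratio of Mir17-92 to Mir106b-25 was 0.91, and 0.86 to 0.96 when either pool was left out. The share of all 9 genes was 2.06% to 2.57% when either pool was left out. Leaving a pool out returns the other pool's own value, so these ranges add no separate check. The number of the 9 genes at least 1.5-fold higher in pool 1 was 1 and lower 0 under every scaling, strand and filter tried. Log2 ratios of single genes moved by at most 0.034, and among the 9 the sign changed only for Mir25, at -0.014 with TMM and 0.019 with library sizes alone, both within its counting interval. Depth limits Mir19b-1, with 27 counts in pool 1 and 26 in pool 2, and the levels of Mir19b-1 and Mir92-1 may be too low where reads aligned to both copies. No paired analysis was possible because the libraries form a single group.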
